A study of Drosophila melanogaster with 10 samples.

Results

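Toll receptors and the spätzle proteins that bind them were examined in RNA-seq of the ventral nerve cord (VNC), the fly counterpart of the spinal cord. The genes were chosen by name as the neurotrophin-type ligands and receptors of the fly nervous system together with the classical immune pair, and were found in the count table by FlyBase ID, by current symbol or by an older synonym. There were 10 of them among 14352 genes in the table, with 6 receptors (Tl, 18w, Toll-6, Toll-7, Tollo and Tehao) and 4 ligands (spz, NT1, spz3 and spz5).

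The libraries came from adults of the laboratory strain w1118, which carries a mutation of the white gene, aged 3 to 10 days according to the labels and with males and females mixed. The paper's methods give a narrower and younger age range for these samples, and fewer VNCs used per library than the labels give as collected. The 5 uninjured libraries were made from VNCs of flies held for 5 hr without food in agar vials. The 5 injured libraries were made from flies that had lost all 6 legs, both wings and the head and had then lain on a humid agar plate for 5 hr. The housing therefore differed along with the injury, and the effects of the 2 cannot be told apart. Each library was a pool of VNCs (60 to 80 collected, per the labels), so p-values measure the spread between such pools.

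Toll proteins are transmembrane receptors with leucine-rich repeats outside the cell and a TIR signalling domain inside. The immune ligand Spätzle is secreted as an inactive precursor, and a cascade of serine proteases held in check by serpins cleaves it once recognition proteins have bound microbial material. Cleaved Spätzle brings Toll molecules together. Inside the cell the adaptors Myd88 and Tube and the kinase Pelle then cause the loss of the inhibitor Cactus, and the NF-κB factors Dorsal and Dif enter the nucleus and drive antimicrobial peptide genes. In the nervous system, NT1 (Spz2) and Spz5 act as neurotrophin-like ligands of Toll-7 and Toll-6. In the developing fly, Spz5 from dying neurons acts on Toll-6 of glia, which raises the engulfment receptor Draper through the TIR adaptor Sarm and the factor FoxO.

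The ligand gene spz showed by far the largest difference among the 10 genes, at 3.78-fold higher levels 5 hr after injury. The receptor genes Tollo and Tl rose as well, by 1.58-fold and 1.22-fold. The nervous system receptors Toll-6 and Toll-7 did not pass the test, nor did 18w and Tehao, and the other ligand genes NT1, spz3 and spz5 were too low to be tested. The estimate for Tehao (1.23-fold) was about that for Tl, but its libraries varied more. The test was edgeR's quasi-likelihood test, and passing meant an adjusted p (Benjamini-Hochberg) under 0.01 among the 9365 genes with a mean level above 2 RPKM (a gene's reads divided by its transcript length and by the library's mapped reads) in at least 1 group. Of the 7 members tested, 3 passed as higher and 0 as lower, where 7.3% of all tested genes passed as higher and 6.62% as lower. At an unadjusted p under 0.05, 0 of the 7 were lower, but the share of all tested genes at that threshold was not computed. DESeq2 and limma-voom also called 0 of the 7 lower, where they called 779 and 572 of all 9365 tested genes lower. With only 7 genes, 0 lower is close to what these shares give. Injured and uninjured libraries did not overlap for 3 of the 7, all with injured libraries higher, while 8.06% of all tested genes were apart in that direction and 8.45% in the other. All 7 had a log2 fold change above 0, against 48% of all tested genes. Their median was 0.29, against -0.01 over all tested genes. The members were chosen with earlier results of these data known, so these counts and the median are descriptions. Libraries are numbered here by their column in the count table.

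**Figure D1:**
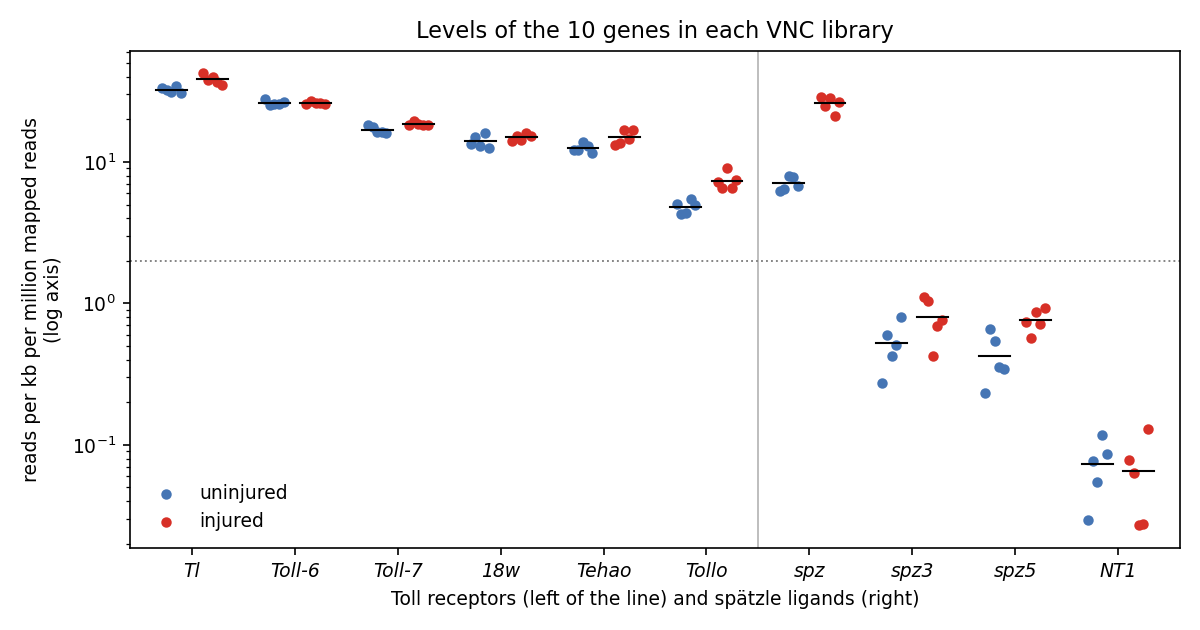
Each point is 1 library, with uninjured libraries in blue and injured ones in red, and the black bars are group means of 5 libraries. The log axis gives RPKM, and the dotted line marks the level of 2 that a group mean had to exceed for the test. Of the ligand genes, spz lies above that line, at a mean of 7.05 RPKM in uninjured and 25.9 RPKM in injured libraries, while spz3, spz5 and NT1 lie below it in every library.

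The immune ligand gene spz (FBgn0003495) gave 19.5, 20.2, 25.7, 23.8 and 22.2 CPM (gene counts scaled to the effective total of the library) in uninjured libraries 1 to 5. In injured libraries 1 to 5 it gave 86.1, 81.7, 91.7, 71.8 and 90.1 CPM. All injured libraries were above all uninjured libraries, and the lowest injured value was well over the highest uninjured one. The means were 22.3 ± 2.54 and 84.3 ± 7.98 CPM (SD, n = 5 each), resting on 113 to 157 counts per uninjured and 409 to 585 per injured library. The log2 fold change was 1.92 (SE 0.09, 95% interval 1.72 to 2.12, edgeR adjusted p = 6.95e-10). A rise of at least 2-fold past the test was shared with 2.32% of tested genes. In a later annotation the exons of spz overlap those of CG43935 on the opposite strand, and since no source gives the counting as strand-specific, the reads of this pair cannot be told apart.

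The ligand genes linked to the nervous system were close to the limit of detection. Because 1 was the lowest count in the deposited table, some of its cells at 1 may hold no read at all. NT1, the ligand of Toll-7, had 1, 3, 2, 4 and 3 counts in uninjured and 3, 2, 1, 1 and 5 in injured libraries. Its row is named for the older gene model CG32242, which covers only part of the current gene, so this low count does not measure the whole of NT1. For spz5, the ligand of Toll-6, there were 4, 13, 10, 6 and 6 counts in uninjured and 14, 9, 16, 13 and 18 in injured libraries. For spz3, whose product signals from neurons to cortex glia, there were 6, 15, 10, 11 and 18 counts in uninjured and 27, 21, 10, 16 and 19 in injured libraries. The groups overlapped for all 3 genes. The fit called no filter here left out only genes with a mean count of 1. In it, the log2 fold changes were 0.89 for spz5 (SE 0.33, edgeR adjusted p = 0.0758) and 0.68 for spz3 (SE 0.32, adjusted p = 0.173). In that fit 5.11% of 13945 genes passed as higher. The 95% intervals were 0.21 to 1.58 for spz5, 0.01 to 1.35 for spz3 and -1.05 to 0.92 for NT1, so that a change of more than 1.5-fold in any of them was neither shown nor excluded.

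Among the receptors, Tollo (FBgn0029114; Toll-8), which acts in epithelial patterning and cell intercalation in the embryo, differed most. It gave 53.5, 45.3, 47.6, 56.4 and 55 CPM in uninjured libraries and 72.9, 72.5, 99.7, 75 and 85.8 CPM in injured ones. The groups did not overlap, and injured library 3 was the highest. The means were 51.6 ± 4.87 and 81.2 ± 11.7 CPM (SD, n = 5 each), a log2 fold change of 0.66 (SE 0.10, 95% interval 0.45 to 0.86, edgeR adjusted p = 8.93e-05). Tl (FBgn0003717), the founding receptor of the family and the receptor for cleaved Spätzle, gave 252, 241, 240, 251 and 243 CPM in uninjured libraries. In injured libraries Tl gave 306, 300, 309, 303 and 286 CPM, again with no overlap. This was the tightest of the 10 genes, with a coefficient of variation of 2.28% in uninjured and 2.96% in injured libraries. Its difference was accordingly small but larger than the spread between libraries, at a log2 fold change of 0.29 (SE 0.05, 95% interval 0.18 to 0.40, edgeR adjusted p = 0.000593). On the authors' RPKM scale with limma, the log2 fold change of Tl was 0.24 and did not pass (limma adjusted p = 0.0148).

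The neurotrophin-type receptors showed smaller differences. Toll-6 (FBgn0036494) gave 314, 285, 294, 280 and 312 CPM in uninjured and 277, 319, 300, 321 and 315 CPM in injured libraries. These ranges overlapped almost wholly, and the log2 fold change was 0.04 (SE 0.06, edgeR adjusted p = 0.651). Its 95% interval, as a fold, ran from 0.941 to 1.13, and its sign turned on the RPKM scale, at -0.0035 (limma adjusted p = 0.966). Toll-7 (FBgn0034476) gave 173, 166, 158, 148 and 156 CPM in uninjured and 163, 194, 180, 186 and 188 CPM in injured libraries. Injured library 1 alone lay within the uninjured range of Toll-7, and the log2 fold change was 0.19 (SE 0.06, 95% interval 0.05 to 0.32, edgeR adjusted p = 0.0415).

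The other receptors that did not pass were 18w and Tehao. 18w (FBgn0004364; 18 wheeler, or Toll-2), a receptor of embryonic tissue morphogenesis, gave 107, 118, 107, 124 and 105 CPM in uninjured and 107, 127, 118, 137 and 133 CPM in injured libraries. The 18w ranges overlapped, with a log2 fold change of 0.15 (SE 0.07, 95% interval -0.01 to 0.31, edgeR adjusted p = 0.153). Tehao (FBgn0026760; Toll-5), a family member with a Toll-like TIR domain, gave 57.2, 57.3, 66.7, 59.1 and 56.2 CPM in uninjured and 58.5, 67.1, 80.5, 73.6 and 84.8 CPM in injured libraries. The Tehao groups overlapped through injured library 1, which lay below uninjured libraries 3 and 4, and the log2 fold change was 0.30 (SE 0.09, 95% interval 0.10 to 0.49, edgeR adjusted p = 0.0299). Tehao overlaps an antisense transcript in the later annotation. Without injured library 1, both Tehao (log2 fold change 0.37, edgeR adjusted p = 0.00272) and Toll-7 (0.22, adjusted p = 0.00715) passed, which made 5 members higher in place of 3. Calls rose over all genes in that fit too, from 684 to 919 higher. The calls of spz, Tollo and Tl held in each of the 10 fits with a library removed.

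**Figure D2:**
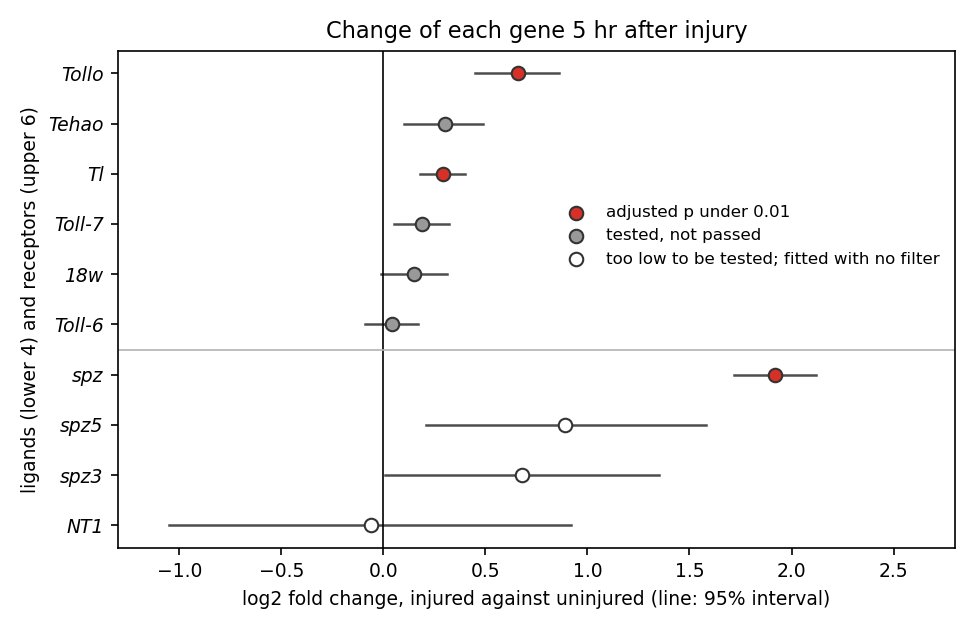
The horizontal axis gives the edgeR log2 fold change of injured against uninjured libraries, with 95% intervals as lines. Red points passed at an adjusted p under 0.01, grey points were tested and did not pass, and white points come from the fit with no filter. The point for spz, at 1.92, lies apart from the 6 receptors, which run from 0.04 for Toll-6 to 0.66 for Tollo.

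Per kilobase of transcript, the order of the genes changed through spz. In uninjured VNCs, Tl was highest at 32.3 ± 1.43 RPKM and Toll-6 followed at 26.3 ± 1.04 RPKM (SD, n = 5). Toll-7 (16.9 RPKM), 18w (14 RPKM) and Tehao (12.6 RPKM) came next, with ranges that overlapped from each to its neighbour. Below them stood spz at 7.05 RPKM and Tollo at 4.82 RPKM, in this order in all 5 libraries. The ligands spz3 (0.522 RPKM) and spz5 (0.428 RPKM) overlapped, and NT1 was last at 0.0729 RPKM. All 6 receptors were thus at about the median level of the table or above it, from the 50.1 percentile for Tollo to the 89.5 percentile for Tl. After injury spz stood at 25.9 ± 3.13 RPKM and its range overlapped that of Toll-6 (26.2 ± 0.488 RPKM), so that by group means it moved from rank 6 to rank 3. Toll-6 was above spz in 2 of the 5 injured libraries. The means of the other genes kept their order, though 18w was above Tehao in only 3 of the 5 injured libraries. After injury Toll-7 (18.6 RPKM) no longer overlapped 18w (15 RPKM), while 18w and Tehao (14.9 RPKM) did overlap.

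Summed over the genes chosen here, which are not the whole family, the ligand genes gave 8.08 ± 0.913 RPKM in uninjured libraries. In injured libraries they gave 27.5 ± 3.25 RPKM, and the ranges were 6.72 to 9.03 and 22.5 to 30.7. The receptor genes summed to 107 ± 3.56 RPKM and 120 ± 2.88 RPKM, with ranges of 103 to 111 and 118 to 125. The ratio of the receptor sum to the ligand sum went from 13.4 ± 1.83 to 4.41 ± 0.512. These sums are descriptions with no test, and they follow spz, which made up 87.4% of the ligand sum in uninjured and 94% in injured libraries. Of the receptor sum, Toll-6 made up 24.6% before and 21.8% after injury, and Tollo 4.51% and 6.1%, each with no overlap between groups, while the shares of Tl (30.3% and 31.8%), 18w, Toll-7 and Tehao overlapped. The level of Toll-6 itself was 26.3 and 26.2 RPKM, so its share fell because the receptor sum rose.

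**Figure D3:**
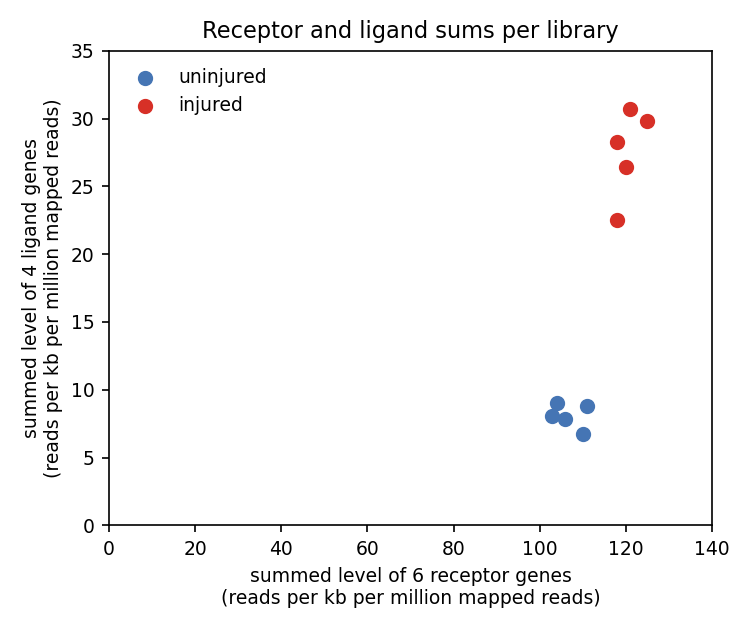
Each point is 1 library, placed by its summed level of the 6 receptor genes (horizontal) and of the 4 ligand genes (vertical), both in RPKM on axes that start at 0. Injured libraries (red) lie at 22.5 to 30.7 RPKM of ligand against 6.72 to 9.03 RPKM in uninjured libraries (blue), while the receptor sums run from 118 to 125 RPKM against 103 to 111 RPKM.

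The other genes of the pathway were taken from 8 lists ordered by role, which held 61 genes. Of these, 48 were tested, 27 rose, 2 fell and 19 did not pass. Among all tested genes, 7.3% passed as higher and 6.62% as lower, and these shares apply to the edgeR counts of every list below. The median log2 fold change of the 48 was 0.88, against -0.01 over all tested genes. The lists were chosen with earlier results of these data known, so their counts are descriptions. Of the 41 that were above the level filter in both groups, 23 rose and 2 fell. Another 4 entered the test through the injured libraries alone (Hayan, spirit, BomBc1 and IM18), and 3 through the uninjured ones alone (modSP, GNBP1 and GNBP2). The remaining members of the receptor and ligand families (MstProx, Toll-4, Toll-9, spz4 and spz6) all fell under the filter, with 1 to 15 counts in any library.

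Upstream of Spätzle, 3 of 5 tested protease genes rose, of which Hayan and spirit were above the level filter in injured libraries only and so had to be higher there to be tested. They were SPE, which cleaves Spätzle (log2 fold change 1.72, SE 0.19, edgeR adjusted p = 4.43e-05), Hayan, a wound-responsive protease (2.83, SE 0.23), and spirit (1.81, SE 0.24), a serine protease of the same cascade. Hayan gave 2.56 ± 0.747 CPM in uninjured and 18.5 ± 4.98 CPM in injured libraries. The upstream protease gene modSP had a log2 fold change of -0.83 and did not pass (adjusted p = 0.0154), and the other 7 proteases of the list, psh and grass among them, were too low to be tested. Of the 6 serpin genes, whose products restrain such proteases, 5 rose. Spn28Dc had the largest change, from 8.28 ± 2.53 to 121 ± 30.4 CPM (log2 fold change 3.86, SE 0.26), and Spn27A (1.37, SE 0.13) and nec (1.10, SE 0.09), known inhibitors of the cascade, rose as well.

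Of 5 recognition genes, PGRP-SA and PGRP-SD, for proteins that bind bacterial peptidoglycan, rose, and GNBP3, for a sensor of fungal glucans, fell. PGRP-SA went from 3.88 ± 1.18 to 80.3 ± 13.5 CPM (log2 fold change 4.37, SE 0.17, edgeR adjusted p = 8.33e-10), and PGRP-SD from 8 ± 1.55 to 30.5 ± 4.73 CPM. The groups of GNBP3 overlapped (log2 fold change -1.03, SE 0.23, adjusted p = 0.00568), and its call was kept in 3 of 10 fits with 1 library removed. It was lost on removing uninjured library 2, 3, 4 or 5, or injured library 1, 2 or 4 (edgeR adjusted p from 0.0101 to 0.0197). The list's median was -0.41, on the other side of 0 from its 2 rises.

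Below the receptor, 2 of 9 genes for adaptors, kinase and regulators rose. One was pll, for the kinase Pelle (log2 fold change 1.32, SE 0.15, edgeR adjusted p = 9.3e-06). The other was Sarm (also Ect4), for the TIR protein that acts in axon degeneration and in Toll-6 signalling, which went from 598 ± 56.2 to 970 ± 59.3 CPM (log2 fold change 0.70, SE 0.08, adjusted p = 4.46e-06). Myd88 and tub, for the adaptors, had log2 fold changes of 0.24 and -0.29 and did not pass. Both NF-κB genes dl (2.07, SE 0.10) and Dif (1.02, SE 0.09) and the inhibitor gene cact (1.32, SE 0.07) rose, while cactin, a cofactor, was at -0.02 (adjusted p = 0.911). The fold change of cactin turned sign with no filter or without uninjured library 2 or injured library 1.

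All 11 antimicrobial and Bomanin-type peptide genes listed as Toll targets rose, with a median log2 fold change of 2.94. Whether Toll signalling or another pathway drove them was not tested. Of these, 9 were above the level filter in both groups, while BomBc1 and IM18 were above it in injured libraries only. Metchnikowin (Mtk), an antifungal peptide, went from 2.27 ± 1.02 to 92.6 ± 29 CPM (edgeR adjusted p = 1.79e-06), BomBc1 from 0.962 ± 0.961 to 24.5 ± 8.13 CPM and IM18 from 0.469 ± 0.373 to 25.8 ± 5.2 CPM. The row of IM18 repeats the counts of CG10332 in every library, and the short Bomanin genes BomS1, BomS2 and BomS3 are near copies of each other, so their separate values are uncertain.

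The partners of Toll-6 and Toll-7 were mixed. The 6 kekkon genes, for leucine-rich receptors of which Kek-6 binds Spz5, did not pass, with kek2 the highest of them at 183 ± 10.8 and 193 ± 13.5 CPM (log2 fold change 0.08, edgeR adjusted p = 0.424). The engulfment receptor gene drpr rose from 189 ± 3.38 to 413 ± 6.97 CPM (log2 fold change 1.13, SE 0.05, adjusted p = 4.31e-10), and foxo dropped from 89.7 ± 9.97 to 54.2 ± 5.51 CPM (-0.73, SE 0.09, adjusted p = 1.31e-05).

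**Figure D4:**
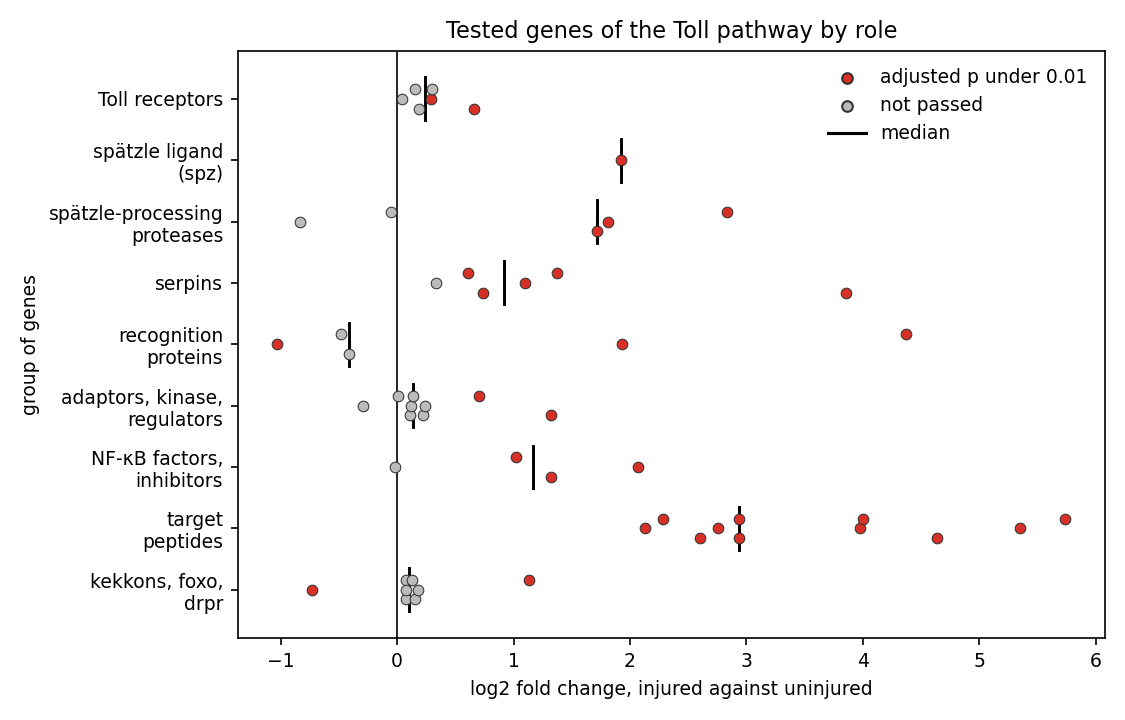
Each point is 1 tested gene, placed by its edgeR log2 fold change (injured against uninjured) in the row of its role, red where the adjusted p was under 0.01 and grey where it was not, and black bars are the medians of the rows. The target peptides (median 2.94) and spz (1.92) lie to the right. The medians of the receptors (0.24) and of the row of kekkons, foxo and drpr (0.10) lie near 0. In these 2 rows Tollo (0.66), drpr (1.13) and foxo (-0.73) passed and lie farther out.

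For each member that passed, the 3 genes with the most similar pattern over the 10 libraries were found by the root mean square difference of log2 CPM after centring each gene on its mean. The patterns were not scaled, so this distance depends strongly on the size of the difference between groups. It is no test of shared regulation. For spz these genes were pain (0.134), a cation channel gene of nociception, GEFmeso (0.137), for an exchange factor of small GTPases, and CG1572 (0.138), where the median distance to 9364 genes was 0.985. Their log2 fold changes were 1.86, 1.92 and 1.70, near that of spz. For Tollo they were CG2765 (0.102), CG30108 (0.109) and the formin gene Frl (0.115), with a median of 0.407 over all genes. For Tl they were mahj (0.040), puml (0.049) and the Hedgehog pathway inhibitor gene Su(fu) (0.053), with a median of 0.240. Neither CG30108 (edgeR adjusted p = 0.0114) nor Su(fu) (adjusted p = 0.0319) passed the test.

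Library totals were 5146470 to 6640492 counts. Reads with adapter sequence were fewer in uninjured (2229 to 2890) than in injured libraries (4814 to 5452). The share of exon reads was 41.3% to 43.4% in uninjured and 37.2% to 43.1% in injured libraries. RPKM values are scaled by all mapped reads, so a lower exon share lowers them. The part of either difference in these results was not tested. All 12 neuron markers were detected and 0 passed in edgeR, DESeq2 or limma-voom (2 were higher at an unadjusted p under 0.05), with summed levels of 1532 to 1933 RPKM in uninjured and 1555 to 1758 RPKM in injured libraries. Of 12 glia markers 3 rose and 4 fell (2009 to 2709 and 1537 to 2305 RPKM). Markers of tissues that could be carried over were detected too, and 0 of 11 hemocyte, 10 fat body, 10 muscle and 9 gut enzyme markers stood at 1 count or less in every library. Of 9 tested hemocyte markers 2 fell in edgeR, 5 in DESeq2 and 4 in limma-voom, with summed levels of 134 to 222 and 98.2 to 147 RPKM. Of 10 fat body markers 1 fell in edgeR, 3 in DESeq2 and 2 in limma-voom (1243 to 3222 and 819 to 1406 RPKM). Muscle markers differed most between injured libraries, from 120 to 1376 RPKM against 290 to 423 RPKM in uninjured ones, and 0 of 10 passed in any of the 3 tools (2 were higher at an unadjusted p under 0.05). Of 8 tested gut enzyme markers 1 fell in edgeR, 6 in DESeq2 and 1 in limma-voom (93.2 to 772 and 38.5 to 80.3 RPKM). Of the fat body and hemocyte markers 0 rose in any of the 3 tools or at an unadjusted p under 0.05, although Fbp1 (log2 fold change 2.17, SE 1.55) and Lsp1beta (1.41, SE 1.13) of the fat body had positive values with a wide spread. These tissues are known to express spz, Tl and the target peptides as well, and their part in the results was not tested. In a bulk sample, more cells of a type and more RNA per cell cannot be told apart.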

How the data were processed

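RNA-seq libraries were grouped by their labels as uninjured or injured, 5 each. The authors depleted ribosomal RNA without poly(A) selection, ran 100-base single-end sequencing, used BWA within GeneSifter for alignment, and deposited estimated counts per gene (versions not given in the sources used here), which lay within 0.00063 of whole numbers and were rounded. The values that the authors call TPM are RPKM by their formula and served for the filter and for levels. Deposited fold change and p-value columns hold the authors' comparison and were not used. The number of unused per-sample columns was 0, and 1 gene with a non-numeric entry was dropped. The submitters' processing notes name limma.

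Counts were tested with edgeR 4.0.16 (R 4.3.3; TMM factors 0.9712 to 1.04, robust quasi-likelihood, Benjamini-Hochberg adjustment) over genes with a mean RPKM above 2 in at least 1 group, and SE and 95% intervals were derived from its F statistic. limma 3.58.1 (voom, or log2 of RPKM plus 0.5 or 1) and DESeq2 1.42.0 were alternatives, beside other normalizations, filters, thresholds, the column number as a block and leaving out each library. Tested on simulated counts of 9365 genes with 50 per fold, edgeR found 25 at 1.5-fold, 46 at 2-fold and 50 at 4-fold, and called 2 of the 9165 genes left as they were. The simulation gave every gene the same dispersion (spread beyond counting noise) and drew the libraries independently. Real genes differed in their spread, so these numbers do not give the power or error rate in the real libraries. The members and lists were chosen with earlier results of these data known. All 10 members were named, and in each list up to 3 called genes with the largest change and the uncalled gene with the highest CPM. Myd88 and tub, psh and grass, BomS1 to BomS3 and CG43935 were named outside this rule, after their values were seen. Gene names came from a later annotation, by ID for 13159 genes, by CG number for 672 and by hand for 13.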

Additional observations from a re-analysis of the deposited data

Results flagged for a closer look

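The Tehao level in uninjured library 3, 66.7 CPM, lay far from the other uninjured libraries, which ran from 56.2 to 59.1 CPM. The gap to its nearest neighbour took 0.722 of the range of the group. It was 1 of 20 groups of values examined in this way, and chance alone gives about 1 in 20.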

How the results depend on the processing

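Of the members, 3 passed as higher, and 5 did at an adjusted p under 0.05 (11.5% of all tested genes then passed as higher) and 3 to 5 when each library was left out, with 5 without injured replicate 1. The pathway genes that fell numbered 2, with 4 at an adjusted p under 0.05 and 1 to 3 when each library was left out. With limma on log2(RPKM + 0.5) or log2(RPKM + 1), Tl was at 0.24 (limma adjusted p = 0.0148) and Toll-6 at -0.0035 (adjusted p = 0.966), on a scale where the median of all genes was -0.058 with the first. In each of these limma fits 2 members, spz and Tollo, passed as higher. Of all 9365 tested genes, 494 and 493 passed as higher in these fits, against 684 in the main fit. At an adjusted p under 0.05, Toll-7 (0.19, edgeR adjusted p = 0.0415) and Tehao (0.30, adjusted p = 0.0299) passed. Leaving out each library gave 0.16 to 0.23 for Toll-7 and 0.25 to 0.37 for Tehao. The change of cactin was 0.0044 with no filter and -0.065 to 0.07 when each library was left out (0.07 without uninjured replicate 2, 0.066 without injured replicate 1). The cause was not tested in any of these. Of 550 fold changes of named pathway genes under alternatives, 536 kept their sign and side of the threshold. Most of these genes were named for the largest changes in their list, so this count was largely set by that choice. GNBP3, nearer the threshold, lost its call in 7 of its 22 alternatives. The labels give the groups no shared replicate numbers. Same-numbered columns correlated at -0.12, 0.209, 0.113, -0.142 and 0.299 in their deviations from the group means. Uninjured columns 2, 3 and 5 were most like the injured column of their own number, and columns 1 and 4 were not. These values do not settle whether the numbers pair the libraries. With the column number as a replicate block, 3 members passed as higher. All genes then gave 625 higher and 608 lower calls, against 684 and 620. In simulated data 25 of 50 genes changed 1.5-fold were called, and smaller changes were not simulated.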
